A study of Mus musculus with 24 samples.

Results

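The genes described are those that build the lung's collagen, elastic fibre and basement membrane scaffold, followed through lung injury and recovery. They were chosen by gene symbol, with earlier results of these data known. The rule took every collagen chain, laminin chain, fibrillin, fibulin, Emilin, Efemp, lysyl oxidase-like and spondin gene, together with Lox, Eln, Fn1, Tnc, Tgfbi, Nid1, Nid2, Sparc, Dcn, Lum, Bgn and Postn. A probe also had to be detected, with a detection score over 0.95 in at least 3 of the 24 arrays. The rule gave 49 genes with 64 probes, out of 9605 named genes with 11658 probes that met this detection minimum. Only probes of the authors' deposited value table carried a gene symbol, so probes outside it could not match. Fbn1 and Fbln5 had no probe among the 64. One further probe matched by symbol, for Col9a3, and did not reach the detection minimum. Of the 64 probes, 36 were detected on all 24 arrays, 22 on 9 to 23 arrays and 6 on 3 to 8, and 10 genes had more than 1 probe.

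Whole lungs of male C57BL/6 mice aged 6 to 8 weeks were profiled on Illumina beadchips, microarrays that report a fluorescence signal per probe. Mice were wild type or Rag-1 null; Rag-1 is needed to rearrange antigen receptor genes, so Rag-1 null mice make no mature T or B cells. Each genotype had 4 groups of 3 samples: untreated controls, and mice at day 1, day 4 and day 10 after LPS (bacterial lipopolysaccharide, which provokes acute lung inflammation). The series concerns genes through which regulatory T cells may act in the resolution of lung injury. How LPS was given, at what dose, and how many animals made up a sample: none of these is given in the sources used here. No group received regulatory T cells. The Rag-1 null mice lack all mature lymphocytes rather than regulatory T cells alone. T cell markers (6 of 9 listed had a tested probe) summed to 236 to 446 units of normalised signal over the wild type arrays and 134 to 160 over the Rag-1 null arrays. For B cell markers (5 of 9 tested) the sums were 191 to 764 and 111 to 133. In the Rag-1 null groups 3 of the 6 T cell markers, Cd3g and Cd6 among them in each, and 3 or 4 of the 5 B cell markers were detected on no array.

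Fibrillar collagens form the tensile cables of the lung interstitium, elastin on its microfibril scaffold gives recoil, and the basement membrane is a sheet of type IV collagen and laminin beneath epithelium and endothelium. Lysyl oxidases cross-link collagen and elastin, while fibronectin, tenascin-C and the TGF-beta-induced protein form a provisional, cell-adhesive matrix. In adult lung most of these genes are expressed mainly by fibroblasts and smooth muscle, whereas alveolar epithelium and endothelium contribute the basement membrane, and macrophages also make fibronectin and Tgfbi.

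Values are log2 of the background-corrected, quantile-normalised signal unless a sentence says otherwise. A probe's value was compared only with its own value in other arrays. Detected probes numbered 9517 to 12125 per array, and were fewest in the wild type controls (9663 to 10181) and wild type day 1 arrays (9517 to 10319); Rag-1 null controls had 11212 to 11463. One array stood apart: wild type LPS day 1 replicate 1 correlated at 0.858 and 0.914 with the other replicates of its group, which correlated at 0.969 with each other. Replicates of the other 7 groups correlated at 0.966 to 0.992. Most named results that rest on the wild type day 1 group are given with and without that array, and marker counts only with it. Markers of heart muscle (6 of 11 tested) varied within and between groups. Wild type sums were 304 to 3229 units in controls and 407 to 3401 at day 1. At day 4 they were 203 to 927, and at day 10 they were 1723 to 3219. The Rag-1 null sums were 823 to 2893, 358 to 578, 223 to 1050 and 524 to 1809. Of the 6, 4 were higher at wild type day 10 than at day 4, against 8.00% of all probes. Against controls, 3 were lower at Rag-1 null day 1 and 4 at day 4 (9.13% and 15.4%). Their part in the matrix results was not tested. Myh6 was detected on no array of 5 groups. The array number per group, 3, limits the precision of every value.

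Promoter windows from RefSeq (build GRCm38.p6, 250 bases before to 50 after the annotated start) were held for 33 of the 49 genes. Those of 6 genes are shown because of how the genes moved: Col1a2 and Col3a1 rose together in wild type lung, Tgfbi differed between genotypes at day 10, Col4a1 and Col4a2 are transcribed away from each other from a shared region, and Col4a4 fell. The windows lie at chr6:4505368-4505667 (plus strand, Col1a2), chr1:45311288-45311587 (plus, Col3a1), chr13:56609336-56609635 (plus, Tgfbi), chr8:11312777-11313076 (minus, Col4a1), chr8:11312555-11312854 (plus, Col4a2) and chr1:82586800-82587099 (minus, Col4a4). Each is written 5′ to 3′ on its gene's strand, and capitals mark the TATA box letters TATAAA, the CAAT box letters CCAAT and the GC box letters GGGCGG on either strand; neighbouring matches may share letters.
Col1a2: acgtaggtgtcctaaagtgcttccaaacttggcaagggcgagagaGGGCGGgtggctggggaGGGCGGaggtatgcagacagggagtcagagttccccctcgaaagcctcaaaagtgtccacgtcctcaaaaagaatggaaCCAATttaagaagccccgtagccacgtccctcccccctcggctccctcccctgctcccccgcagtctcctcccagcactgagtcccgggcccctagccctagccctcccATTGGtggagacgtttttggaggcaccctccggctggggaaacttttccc
Col3a1: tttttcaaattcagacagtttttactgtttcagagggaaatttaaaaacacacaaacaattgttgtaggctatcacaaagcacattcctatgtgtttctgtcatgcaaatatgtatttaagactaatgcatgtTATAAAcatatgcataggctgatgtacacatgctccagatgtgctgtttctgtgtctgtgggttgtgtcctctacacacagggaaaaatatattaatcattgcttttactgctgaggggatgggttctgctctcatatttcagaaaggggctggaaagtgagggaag
Tgfbi: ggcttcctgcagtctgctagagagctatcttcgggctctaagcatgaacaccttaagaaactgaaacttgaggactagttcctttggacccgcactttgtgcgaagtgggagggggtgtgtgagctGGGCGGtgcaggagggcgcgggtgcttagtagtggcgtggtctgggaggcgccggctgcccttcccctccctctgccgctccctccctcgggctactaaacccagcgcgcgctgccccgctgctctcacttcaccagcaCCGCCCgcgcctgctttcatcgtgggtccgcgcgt
Col4a1: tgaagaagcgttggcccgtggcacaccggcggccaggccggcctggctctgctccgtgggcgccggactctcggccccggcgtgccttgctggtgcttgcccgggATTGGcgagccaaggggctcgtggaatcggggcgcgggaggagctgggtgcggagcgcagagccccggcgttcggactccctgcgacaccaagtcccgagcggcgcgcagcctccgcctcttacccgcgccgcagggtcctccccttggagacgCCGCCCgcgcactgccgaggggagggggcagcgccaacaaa
Col4a2: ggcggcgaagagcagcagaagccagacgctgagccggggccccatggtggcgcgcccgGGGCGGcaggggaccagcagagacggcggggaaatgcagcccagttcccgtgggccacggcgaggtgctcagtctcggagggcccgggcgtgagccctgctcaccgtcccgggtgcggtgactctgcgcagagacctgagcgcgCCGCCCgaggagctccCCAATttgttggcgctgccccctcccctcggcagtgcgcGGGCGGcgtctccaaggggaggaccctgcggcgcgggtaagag
Col4a4: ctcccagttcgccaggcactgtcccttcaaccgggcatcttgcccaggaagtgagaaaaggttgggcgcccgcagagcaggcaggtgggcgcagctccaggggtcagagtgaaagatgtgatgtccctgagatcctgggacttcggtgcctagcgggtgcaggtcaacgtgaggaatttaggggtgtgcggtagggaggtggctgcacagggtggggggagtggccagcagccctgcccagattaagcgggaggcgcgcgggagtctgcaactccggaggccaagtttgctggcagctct
The TATA box letters were present in 13.6% of all 32851 windows, the CAAT box in 37.4% and the GC box in 35.7%. Among the 33 genes with a window, 4 held the TATA box in at least 1 window, 12 the CAAT box and 23 the GC box. These counts are per gene and the shares per window, so the 2 cannot be compared directly. Of the genes shown, Col3a1 held the TATA box letters once. Col1a2 held the CAAT box 2 times and the GC box 2 times, and Tgfbi held the GC box 2 times. Col4a4 held none of the 3 motifs. The Col4a1 and Col4a2 windows overlap by 78 bases, chr8:11312777-11312854, and read the same on opposite strands there. A match is a description of these letters, not a binding site.

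The first comparison asks how LPS changed matrix genes within each genotype. Wild type lungs at day 4 showed the broadest rise of matrix genes: 18 member probes were higher and 4 lower than in controls, of 64, against 10.7% of all 13544 tested probes higher and 12.6% lower (22 member probes in all, against 23.3%). At day 10, 10 were higher and 1 lower, against 0.945% and 1.11% of all probes (11 in all, against 2.05%). At day 1, 9 were higher and 13 lower, against 18.1% and 21.2% (22 in all, against 39.2%). In Rag-1 null lungs 8 were higher and 11 lower at day 1 (all probes 7.75% and 9.13%, and 19 in all against 16.9%). The counts at day 4 were 11 higher and 16 lower (11.9% and 15.4%, and 27 in all against 27.2%), and at day 10 they were 8 higher and 3 lower (4.64% and 4.24%, and 11 in all against 8.87%). The median change of the 64 probes in wild type lung was -0.01, 0.16 and 0.38 at days 1, 4 and 10, beside -0.01, -0.02 and 0.01 over all tested probes. For Rag-1 null lung the median was -0.12, -0.15 and 0.06, beside -0.01, -0.02 and -0.01. All 3 comparisons of a genotype share the same 3 control arrays. A call means an adjusted p under 0.05 from limma's moderated test, two-sided, over all tested probes. Where members under an unadjusted p of 0.05 are counted, the share of all probes under it was not counted. Those counts therefore cannot be weighed.

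The wild type day 10 count rested on few arrays. It was 3 without wild type day 10 replicate 1 and 18 (17 higher and 1 lower) without wild type day 1 replicate 1, an array outside that comparison which enters through the shared estimate of spread. Of the 9 genes called at day 10 in wild type lung, Col1a2 and Spon2 kept their call whichever array was left out. Without wild type day 1 replicate 1 the wild type counts were 12 higher and 9 lower at day 1, against 21.3% and 24.1% of all probes in that fit. At day 4 they were 21 higher and 7 lower. Shares of all probes are from the fit with all arrays unless a sentence says otherwise. Where 2 probes of a member were both called in a comparison, they moved the same way in every case.

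**Figure D1:**
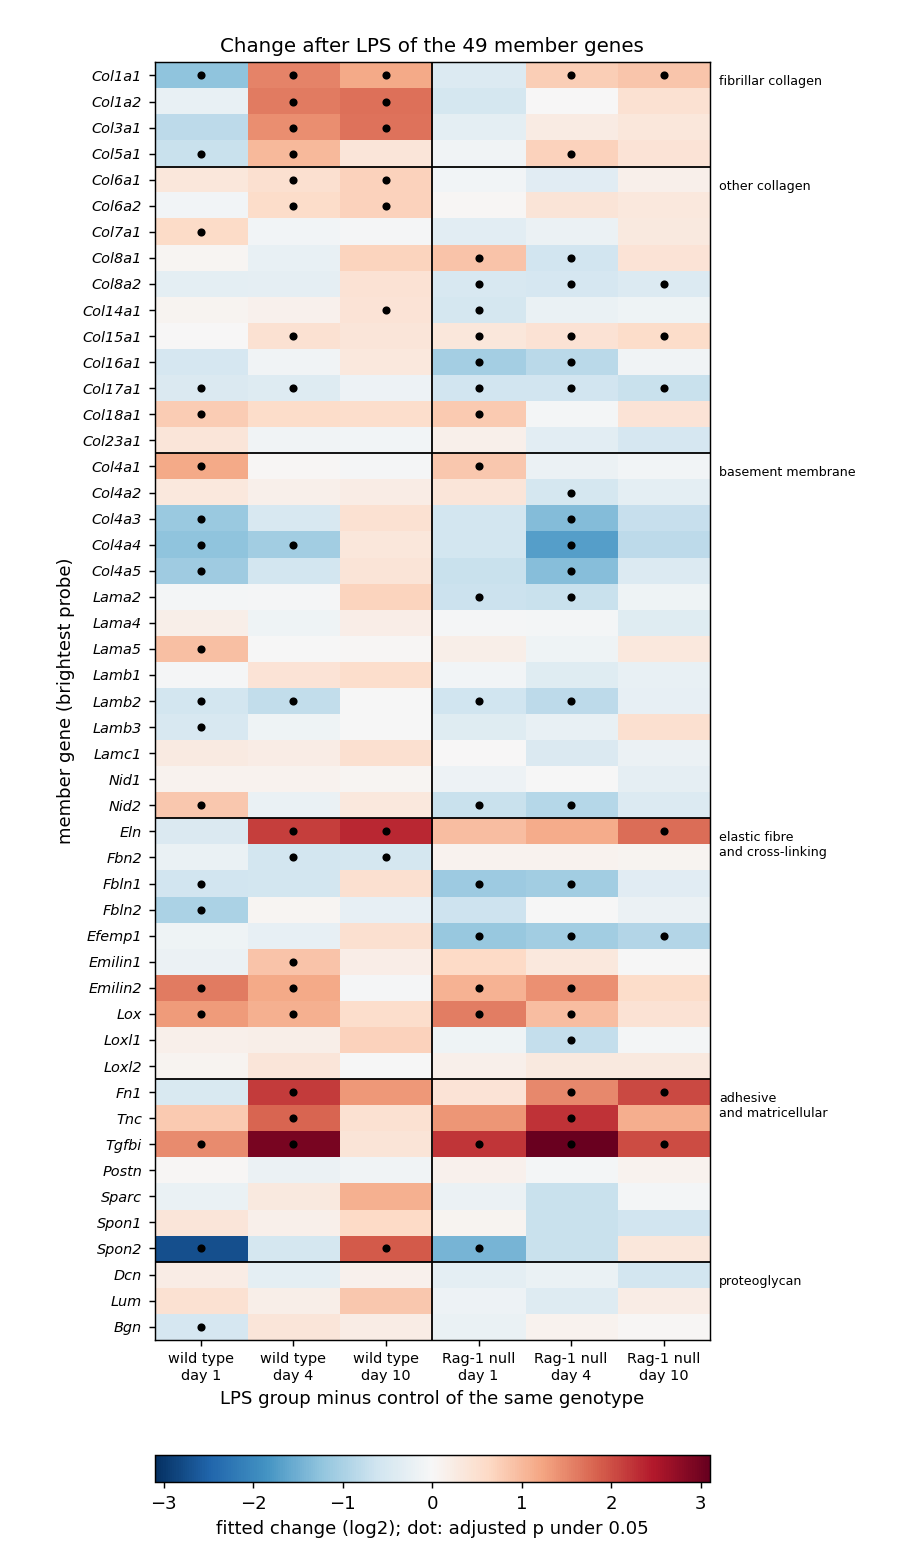
Fitted change after LPS (log2, LPS group minus control of the same genotype) for the 49 member genes, 1 row per gene (brightest probe) and 1 column per genotype and day; dots mark adjusted p under 0.05. The 4 fibrillar collagens at the top are red in wild type lung at day 4, and Tgfbi is the darkest red row, reaching 2.93 in wild type and 3.06 in Rag-1 null lung at day 4.

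The fibrillar collagens, which make the load-bearing fibres, rose in wild type lung after LPS. All 4 measured genes (Col1a1, Col1a2, Col3a1, Col5a1) were higher at day 4 and 3 of 4 at day 10. The shares of all probes were 10.7% and 0.945%. In Rag-1 null lung 2 of 4, Col1a1 and Col5a1, were higher at day 4 and 1 of 4, Col1a1, at day 10. The shares there were 11.9% and 4.64%. At day 1 none had risen, and Col1a1 and Col5a1 were lower in wild type lung, where 21.2% of all probes were lower. Whole lung RNA cannot tell fewer cells of a type from less RNA per cell, here or in any later result.

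Col1a1 encodes the alpha 1 chain of type I collagen, the main fibre-forming collagen. It read 7.44, 6.54 and 7.03 in the wild type controls and 5.27, 5.98 and 6.02 at day 1. The wild type day 4 arrays read 8.18, 8.63 and 8.83, and those at day 10 read 8.14, 8.20 and 8.22. Every day 4 and day 10 array was above every control, and every day 1 array below. The fitted log2 change was -1.24 ± 0.26 (SE) at day 1 (adjusted p 0.000559), 1.54 ± 0.26 at day 4 (adjusted p 0.00017) and 1.18 ± 0.26 at day 10 (adjusted p 0.018). Without the day 1 array that stood apart, the day 1 change was -1.0 (adjusted p 0.00313). The day 10 call ended without wild type control replicate 2 (0.95, adjusted p 0.0861) or without any 1 of the 3 day 10 arrays (1.17 to 1.21, adjusted p 0.0611 to 0.0757).

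In Rag-1 null lung Col1a1 read 7.89, 7.49 and 7.48 in controls, 7.52, 7.12 and 6.93 at day 1, 8.76, 8.35 and 8.02 at day 4, and 8.69, 8.77 and 7.97 at day 10. The day 4 and day 10 arrays lay above all 3 controls. Changes were 0.75 ± 0.26 at day 4 (adjusted p 0.0328) and 0.85 ± 0.26 at day 10 (adjusted p 0.0398). The day 4 call ended without control replicate 2 or 3, or day 4 replicate 1 or 2 (0.56 to 0.76, adjusted p 0.0727 to 0.154). The day 10 call ended without control replicate 2 or 3, day 4 replicate 2, day 10 replicate 1 or 2, or wild type day 10 replicate 2 (0.71 to 0.85, adjusted p 0.0502 to 0.204).

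Col1a2, the partner alpha 2 chain of type I collagen, read 6.84, 5.68 and 6.53 in wild type controls, 7.69, 7.86 and 8.31 at day 4, and 7.98, 8.16 and 8.01 at day 10. The LPS arrays at both days lay above every control, and the changes were 1.61 ± 0.32 (3.04-fold, adjusted p 0.00101) and 1.70 ± 0.32 (3.25-fold, adjusted p 0.0102). The Rag-1 null controls already read 7.66, 7.72 and 7.50, and the day 4 arrays 7.68, 7.82 and 7.38, which overlap them. At day 10 Rag-1 null lungs read 8.62, 8.05 and 7.61, and neither day passed the test. Col3a1, the chain of type III collagen found in distensible tissue, showed a like arrangement. Wild type controls read 7.26, 6.10 and 7.58, against 8.45, 8.04 and 8.77 at day 4 and 8.75, 8.38 and 8.85 at day 10, with no overlap. Its wild type changes were 1.44 ± 0.39 at day 4 (adjusted p 0.00951) and 1.68 ± 0.39 at day 10 (adjusted p 0.0253). The Rag-1 null controls read 8.51, 8.02 and 7.97, day 4 lungs 8.28, 8.54 and 8.47, and day 10 lungs 8.65, 8.45 and 8.47. Control and LPS arrays overlapped there. The Col3a1 call at day 4 ended without wild type control replicate 2 (1.00, adjusted p 0.078). At day 10 it ended without that control (1.24, adjusted p 0.12), or without day 10 replicate 1 (1.64, adjusted p 0.102) or replicate 3 (1.59, adjusted p 0.106).

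The array plot sets both genotypes side by side for these chains. At day 4 the difference of Rag-1 null minus wild type was -0.33 for Col1a2 (95% confidence interval -0.96 to 0.31) and 0.01 for Col3a1 (-0.75 to 0.77). In controls it was 1.28 for Col1a2 (adjusted p 0.052) and 1.19 for Col3a1 (adjusted p 0.155), with every Rag-1 null control above every wild type control; neither passed. Without wild type day 1 replicate 1, 2 of the 4 fibrillar genes were higher in Rag-1 null controls. The test of a different LPS response between genotypes did not pass for either gene at day 4 (Col1a2 -1.61 ± 0.46, adjusted p 0.163; Col3a1 -1.18 ± 0.55, adjusted p 0.435). Wild type controls also had fewer detected probes than Rag-1 null controls (above), and whether that bears on the control difference was not tested.

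Col5a1, a minor chain that helps start type I fibres, read 6.87, 6.86 and 7.39 in wild type controls, 8.11, 8.12 and 7.94 at day 4, and 7.42, 7.48 and 7.35 at day 10. It rose at day 4 by 1.02 ± 0.23 (adjusted p 0.00235), and the day 10 arrays overlapped the controls. Rag-1 null controls read 7.29, 7.29 and 7.23 and their day 4 arrays 8.24, 8.07 and 7.68, a rise of 0.73 ± 0.23 (adjusted p 0.0192). That call ended without control replicate 3, day 4 replicate 1 or day 4 replicate 2 (0.60 to 0.70, adjusted p 0.0574 to 0.0846). At day 1 wild type arrays read 5.89, 6.63 and 6.52, a fall of -0.69 ± 0.23 (adjusted p 0.0181). It did not hold without day 1 replicate 1 (-0.46, adjusted p 0.0968) or control replicate 3 (-0.52, adjusted p 0.109). For Col3a1 at day 1, leaving out day 1 replicate 1 moved the change from -0.80, which did not pass, to -1.34, which did (adjusted p 0.00269).

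Markers of fibroblasts and myofibroblasts were summed for the same arrays. Of 18 listed, 15 had a tested probe, and their summed normalised signal was 14543 to 16516 units in wild type controls, 4837 to 5578 at day 1, 4719 to 8248 at day 4 and 14311 to 15832 at day 10. The Rag-1 null sums were 15295 to 16884 in controls, 6025 to 8679 at day 1, 3211 to 7597 at day 4 and 6827 to 10248 at day 10. At wild type day 4, when all 4 fibrillar collagens were higher, 1 of the 15 markers was higher and 6 were lower. The shares of all probes were 10.7% and 12.6%. At wild type day 1 it was 2 and 7 (18.1% and 21.2%), and at day 10 0 and 0 (0.945% and 1.11%). The Rag-1 null counts were 1 and 7 (7.75% and 9.13%), 2 and 8 (11.9% and 15.4%), and 1 and 2 (4.64% and 4.24%). Sums weigh the brightest markers most. The mean log2 value of the 15 was 7.71 to 7.78 in Rag-1 null controls and 7.43 to 7.55 at day 10. Fap was detected on no array of 6 groups. The markers' part in the collagen results was not tested.

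**Figure D2:**
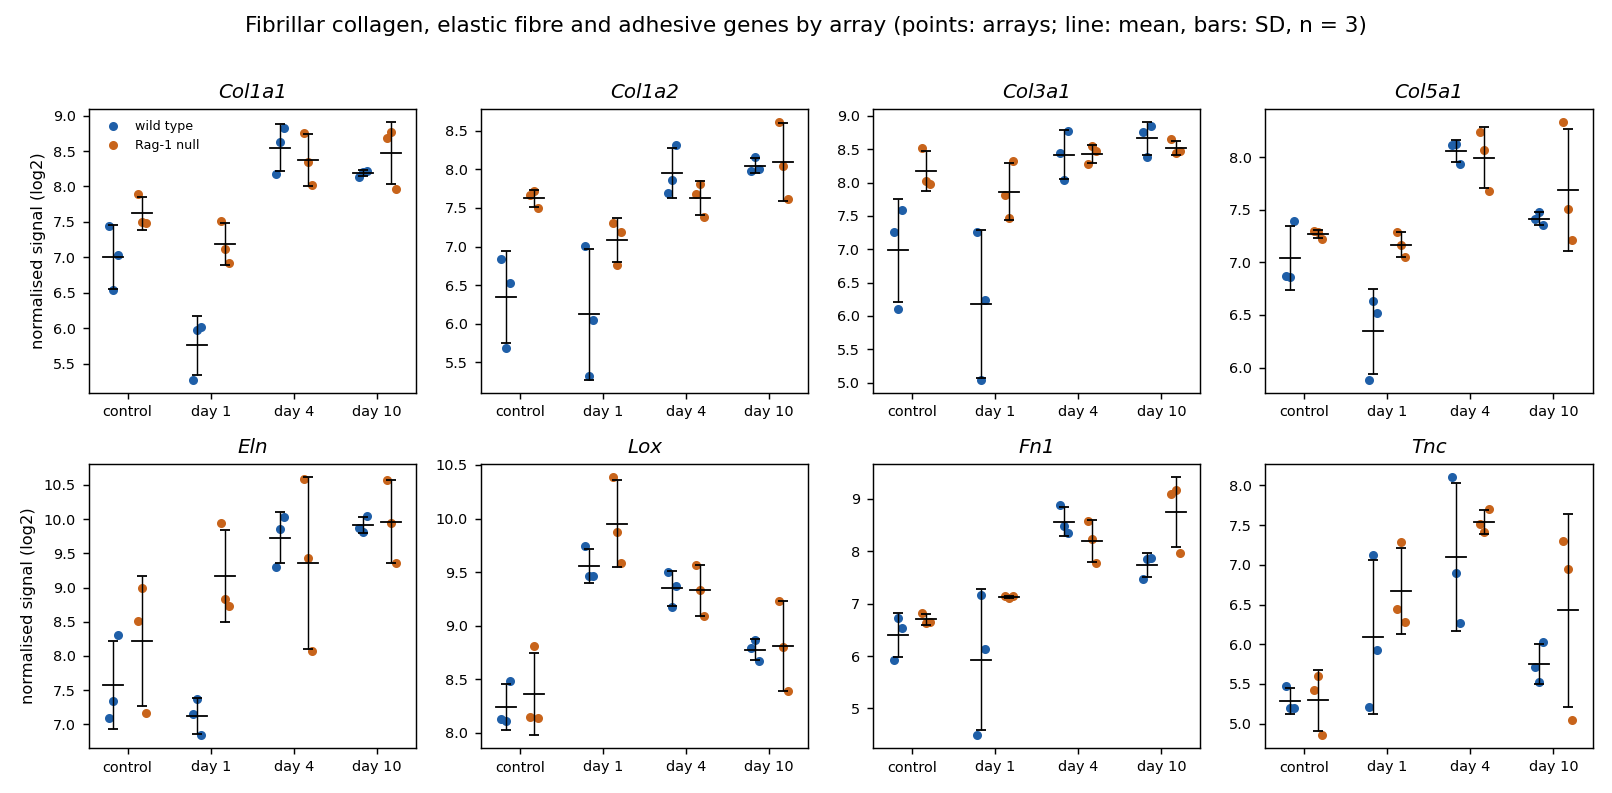
Normalised signal (log2) of 8 member genes in each of the 24 arrays, by day, with wild type in blue and Rag-1 null in orange (points, arrays; line, mean; bars, SD, n = 3). Wild type Col1a2 and Col3a1 controls lie below the Rag-1 null controls, while the day 4 and day 10 arrays of both genotypes overlap.

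The other collagens moved in both directions. Of 11 genes in wild type lung, 2 were higher and 1 lower at day 1 (the same without day 1 replicate 1), 3 and 1 at day 4, and 3 and 0 at day 10. The shares of all probes were 18.1% and 21.2%, 10.7% and 12.6%, and 0.945% and 1.11%. The Rag-1 null counts were 3 and 4, 1 and 4, and 1 and 2, against 7.75% and 9.13%, 11.9% and 15.4%, and 4.64% and 4.24%. Col6a1 and Col6a2, chains of the beaded-filament type VI collagen around cells, rose together in wild type lung. Col6a1 read 9.03, 8.60 and 8.97 in controls, 9.36, 9.32 and 9.39 at day 4 and 9.63, 9.58 and 9.55 at day 10. The LPS arrays lay above all controls, with changes of 0.49 ± 0.17 (adjusted p 0.0379) and 0.72 ± 0.17 (adjusted p 0.0266). Col6a2 gained 0.57 and 0.72. Neither passed at any day in Rag-1 null lung. The Col6a1 call at day 4 ended without wild type control replicate 2 or 3 or any 1 day 4 array (0.36 to 0.54, adjusted p 0.0514 to 0.18). At day 10 it ended without wild type control replicate 2 or any 1 day 10 array (0.59 to 0.74, adjusted p 0.08 to 0.115). The Col6a2 calls ended likewise without wild type control replicate 2 or day 4 replicate 1 at day 4 (0.44 and 0.51), and without control replicate 2 or any 1 day 10 array at day 10 (0.59 to 0.75).

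Several dim collagens fell in Rag-1 null lung. Col17a1, a transmembrane collagen that anchors basal epithelial cells, read 5.12, 5.28 and 5.30 in Rag-1 null controls and at most 4.73 in every Rag-1 null LPS array. Its falls were -0.60, -0.59 and -0.69 (each SE 0.10) at days 1, 4 and 10. The adjusted p values were 0.000262, 0.000158 and 0.00011. In wild type lung it was lower at day 1 by -0.45 (the same without day 1 replicate 1, adjusted p 0.00405) and at day 4 by -0.40, the latter call ending without control replicate 1 (-0.31, adjusted p 0.0543). It was detected on no wild type day 1 array, so that fall is reported as at least 1.11-fold. A bound of this kind sets the brighter group's mean against the higher, per array, of the probe's own value and the lowest value of any detected probe.

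Col16a1, a fibril-associated collagen, read 7.49, 7.82 and 7.50 in Rag-1 null controls, 6.84, 6.12 and 6.66 at day 1 and 7.13, 6.71 and 6.45 at day 4. All 6 arrays lay below the controls, by -1.06 ± 0.23 (adjusted p 0.00203) and -0.84 ± 0.23 (adjusted p 0.00793), the latter ending without Rag-1 null day 4 replicate 3 (-0.68, adjusted p 0.06). By day 10 it read 7.74, 7.57 and 7.18, overlapping the controls. Col8a1, a short-chain network collagen of vessel walls, read 5.21, 5.25 and 5.39 in Rag-1 null controls, 6.40, 6.04 and 6.06 at day 1 and 5.01, 4.53 and 4.54 at day 4. It was thus above all controls at day 1 (0.89 ± 0.19, adjusted p 0.00217) and below all of them at day 4 (-0.59). The day 4 fall did not pass without Rag-1 null control replicate 2 or 3 or day 4 replicate 2 or 3 (-0.61 to -0.51, adjusted p 0.0565 to 0.111).

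Col18a1, a basement membrane-zone collagen that is the source of endostatin, rose at day 1 in both genotypes. Wild type controls read 7.12, 7.26 and 7.05, against 8.55, 7.37 and 7.89 at day 1, a change of 0.80 ± 0.22 that fell to 0.49 (adjusted p 0.0391) without day 1 replicate 1. Rag-1 null controls read 7.57, 7.61 and 7.57, against 8.09, 8.64 and 8.47, a change of 0.82 ± 0.22. The Rag-1 null call ended without day 1 replicate 2 (0.70, adjusted p 0.073). Col15a1, its close relative, was not above background on any wild type control array and was higher at wild type day 4 by at least 1.10-fold. It was higher at all 3 days in Rag-1 null lung (0.36, 0.44 and 0.56). The day 1 call there ended without control replicate 2 or 3 or day 1 replicate 1 or 2 (0.27 to 0.35, adjusted p 0.096 to 0.204), and the day 4 call without control replicate 2 (0.35, adjusted p 0.0569). Col7a1, the anchoring fibril collagen, rose at wild type day 1 alone by 0.59 ± 0.16 (0.57 without replicate 1). Its response differed between genotypes, as given with the genotype results. Col23a1, a transmembrane collagen, passed at no day in either genotype.

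Col14a1, a fibril-associated collagen, was higher at wild type day 10 by 0.43 (adjusted p 0.0488), a call that ended without any 1 of 21 arrays. After 1 day in Rag-1 null lung Col14a1 was at least 1.31-fold lower (fitted change -0.55, adjusted p 0.0015). Col8a2, the partner chain of Col8a1, was at least 1.25-fold lower in Rag-1 null lung at day 1 and at least 1.23-fold lower at day 4. The Col8a2 day 1 call ended without Rag-1 null control replicate 1 or 3 or day 1 replicate 2 (-0.46 to -0.37). At day 10 Col8a2 was lower by -0.43 (adjusted p 0.0441), a call that ended without any 1 of 13 arrays.

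The basement membrane genes split by chain. Type IV collagen chains alpha 1 and alpha 2 form the network found in all basement membranes, and chains alpha 3, alpha 4 and alpha 5 form a second network found in the alveolar wall. Col4a1 rose at day 1 in both genotypes, whereas Col4a3, Col4a4 and Col4a5 were lower in wild type lung at day 1 and in the Rag-1 null lungs of day 4. Of the 14 basement membrane genes, 3 were higher and 5 lower at wild type day 1, 2 were lower at wild type day 4, and 7 were lower at Rag-1 null day 4. The shares of all probes were 18.1% and 21.2% at wild type day 1, and 12.6% and 15.4% lower at wild type and Rag-1 null day 4. At day 10 none passed in either genotype by limma, with 4 of the 15 probes under an unadjusted p of 0.05 in each. Without wild type day 1 replicate 1 the wild type day 1 count was 4 higher and 4 lower, against 21.3% and 24.1% of all probes in that fit. At day 10 it was then 2 higher in wild type and 2 lower in Rag-1 null lung.

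Col4a1 read 10.69, 10.16 and 10.72 in wild type controls and 12.21, 11.52 and 11.37 at day 1, with no overlap. The rise was 1.18 ± 0.26 (adjusted p 0.00109), and 0.93 (adjusted p 0.00596) without day 1 replicate 1, the highest array. By day 4 it read 10.46, 10.58 and 10.64, within the control range. The Rag-1 null arrays went from 10.45, 10.77 and 9.86 to 11.21, 11.47 and 10.93 at day 1, a rise of 0.85 ± 0.26 (adjusted p 0.029). That call ended without Rag-1 null control replicate 1 or 3 or day 1 replicate 1 or 2 (0.60 to 0.89, adjusted p 0.0579 to 0.185). Col4a2, whose promoter window overlaps that of Col4a1 (printed above), did not pass at day 1 in either genotype. It read 11.28, 11.44 and 11.62 in wild type controls and 11.84, 11.64 and 11.85 at day 1. In the Rag-1 null lungs of day 4 Col4a2 was lower by -0.55 (adjusted p 0.0454), a call that ended without any 1 of 13 arrays. The 2 genes' changes were not tested against each other.

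Col4a4 read 7.53, 7.65 and 8.06 in wild type controls, 7.29, 5.60 and 6.62 at day 1, 5.98, 7.09 and 6.93 at day 4, and 7.97, 8.11 and 8.18 at day 10. The day 1 and day 4 arrays lay below every control. The changes were -1.24 ± 0.32 at day 1 (adjusted p 0.00318) and -1.08 ± 0.32 at day 4 (adjusted p 0.016). Without day 1 replicate 1 the day 1 fall was -1.63 (adjusted p 8.49e-05); fitted on only the compared arrays, it did not pass (adjusted p 0.0703). The day 4 call ended without control replicate 3 (-0.92, adjusted p 0.0725) or day 4 replicate 1 (-0.74, adjusted p 0.136). Rag-1 null Col4a4 read 8.27, 8.30 and 7.78 in controls, 6.86, 6.21 and 6.13 at day 4, and 7.50, 7.18 and 7.22 at day 10. It was lower at day 4 by -1.71 ± 0.32 (3.28-fold, adjusted p 0.000243). The day 10 arrays also lay below all controls, without passing the test.

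Col4a3 and Col4a5 were also lower at wild type day 1 and Rag-1 null day 4, and were not called at wild type day 4. Col4a3 read 6.26, 7.16 and 6.87 in wild type controls and 4.91, 5.75 and 6.19 at day 1, with every day 1 array lower (-1.15 ± 0.24, adjusted p 0.000577). Without day 1 replicate 1 that fall was -0.79 (adjusted p 0.00267), and on only the compared arrays it did not pass (adjusted p 0.0748). The Rag-1 null arrays of Col4a3 went from 7.17, 7.20 and 7.07 to 5.80, 5.95 and 5.64 at day 4 (-1.35 ± 0.24, adjusted p 0.000163). Col4a5 was lower by -1.09 at wild type day 1 (-0.68 without replicate 1, adjusted p 0.00911) and by -1.32 ± 0.26 at Rag-1 null day 4 (adjusted p 0.000449). From day 4 to day 10 in wild type lung all 3 rose again, Col4a3 by 0.95, Col4a4 by 1.42 and Col4a5 by 0.97. The Col4a3 rise ended without wild type day 4 replicate 1 or day 10 replicate 3 (0.82 and 0.85), and that of Col4a5 without day 4 replicate 1 (0.84, adjusted p 0.079). The test that the day 10 LPS response differed between genotypes gave -1.17 ± 0.34 for Col4a3, with an adjusted p of 0.0823.

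Markers of alveolar type 1, alveolar type 2 and endothelial cells were also lower in those groups. Alveolar type 1 markers (6 of 9 tested) summed to 10983 to 11989 units in wild type controls, 3648 to 5619 at day 1, 6481 to 7506 at day 4 and 10197 to 11232 at day 10. The Rag-1 null sums were 11743 to 12596, 8174 to 8889, 4804 to 6742 and 7039 to 7859. Endothelial markers (11 of 12 tested) summed to 9009 to 10087 units in wild type controls, 4776 to 5881 at day 1, 5049 to 5737 at day 4 and 8171 to 8778 at day 10; the Rag-1 null sums were 9033 to 10487, 7386 to 7675, 3519 to 4864 and 4855 to 5138. All alveolar type 1 markers were detected in every group, and among the endothelial markers Kdr was detected on no array of 5 groups. Alveolar type 2 markers (9 of 9 tested) were lower for 8 of 9 at wild type day 1, against 21.2% of all probes. At Rag-1 null day 4 it was also 8 of 9 (15.4%), and at day 1 it was 7 of 9 (9.13%). Wild type day 4 gave 1 of 9 (12.6%). Alveolar type 2 sums were 19087 to 20750 units in wild type controls and 17511 to 18162 at day 1. They were 13682 to 19650 at day 4 and 21601 to 22428 at day 10. The Rag-1 null sums were 20932 to 21666, 6678 to 10956, 8460 to 14556 and 20719 to 21198. Each of these 9 markers was detected in every group. The part of these 3 marker lists in the type IV collagen results was not tested.

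Laminins are the other main polymer of the basement membrane. Lamb2, the beta 2 chain, was lower in both genotypes at days 1 and 4: -0.57 and -0.77 in wild type lung and -0.62 and -0.81 in Rag-1 null lung. It read 7.39, 7.22 and 7.11 in wild type controls and 6.24, 6.60 and 6.57 at day 4, with no overlap. The day 1 falls ended without wild type control replicate 1 or day 1 replicate 3 (-0.49 and -0.43), and without Rag-1 null control replicate 2 or day 1 replicate 3 (-0.55 and -0.53); without wild type day 1 replicate 1 the wild type fall was -0.74. Lama5, the alpha 5 chain of epithelial and endothelial laminins, rose at wild type day 1 from 6.20, 5.87 and 5.99 to 6.64, 7.18 and 7.04 (0.93 ± 0.17, and 1.09 without replicate 1). Rag-1 null lung read 6.29, 6.29 and 6.03 at day 1 against 6.05, 6.16 and 5.89 in controls and did not pass. Lama2, the alpha 2 chain, was lower in Rag-1 null lung at day 1 and at day 4, by -0.68 each (adjusted p 0.0262 and 0.0164). Those calls ended without Rag-1 null control replicate 2 or 3, day 1 replicate 2 or day 4 replicate 3 (-0.65 to -0.53, adjusted p 0.0566 to 0.117). Lama4, Lamb1 and Lamc1 did not pass against controls at any day in either genotype; without wild type day 1 replicate 1 the Lamc1 change at wild type day 1 went from 0.28 to 0.52 and passed (adjusted p 0.00736). Lamb3 passed in wild type lung at day 1 alone (-0.50), a call that ended without replicate 1 (-0.42, adjusted p 0.0993), without day 1 replicate 3 (-0.54), or without control replicate 1 or 3 (-0.30 and -0.56).

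Nid2, a nidogen that bridges laminin and type IV collagen, moved in opposite directions in the genotypes. Wild type lungs read 6.00, 5.78 and 6.30 in controls and 7.35, 6.51 and 6.75 at day 1, all above the controls (0.84 ± 0.23, adjusted p 0.00485; 0.60, adjusted p 0.03, without replicate 1; adjusted p 0.0767 on only the compared arrays). Rag-1 null lungs read 6.37, 6.22 and 6.19 in controls, 5.66, 5.19 and 5.88 at day 1 and 5.78, 5.37 and 4.94 at day 4, all below. Those changes were -0.68 ± 0.23 at day 1 (adjusted p 0.0398) and -0.89 ± 0.23 at day 4 (adjusted p 0.00445). The Rag-1 null day 1 call ended without any 1 of its 3 controls, day 1 replicate 1 or day 1 replicate 2 (-0.73 to -0.49, adjusted p 0.0675 to 0.234). The test of the day 1 difference between genotypes gave -1.53 ± 0.32 (adjusted p 0.00422), and -1.28 (adjusted p 0.00422) without wild type day 1 replicate 1. Nid1, the other nidogen, did not pass in any of these comparisons.

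**Figure D3:**
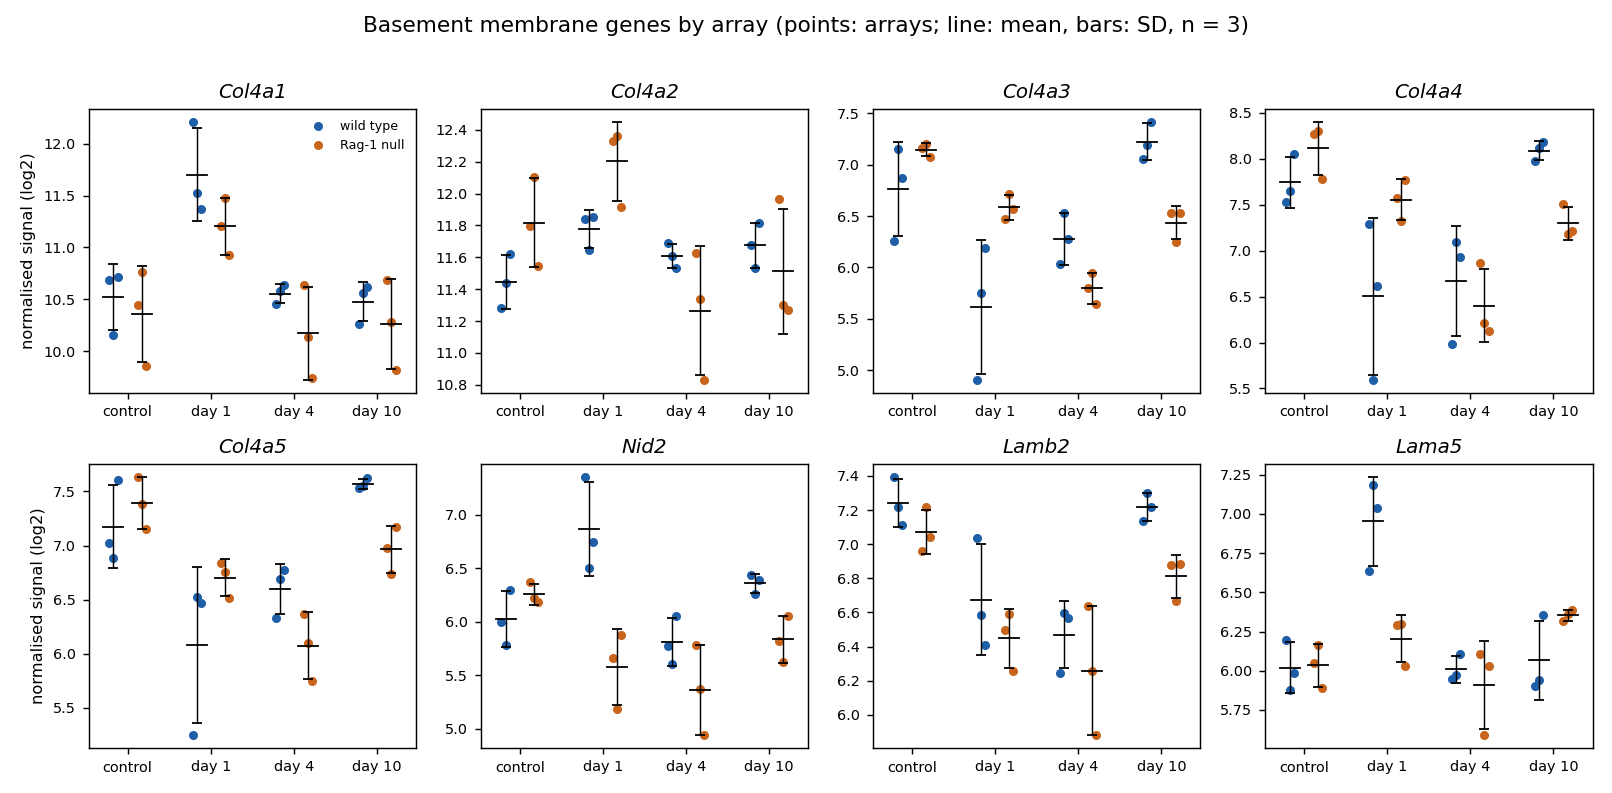
Normalised signal (log2) of 8 basement membrane genes in each array, by day and genotype (points, arrays; line, mean; bars, SD, n = 3). Col4a3, Col4a4 and Col4a5 have their lowest means at wild type day 1 and Rag-1 null day 4, while Col4a1 is highest at day 1 in both.

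Of the 10 elastic fibre and cross-linking genes, 2 were higher and 2 lower at wild type day 1 (2 and 1 without replicate 1), against 18.1% and 21.2% of all probes. At day 4 there were 4 and 1 (10.7% and 12.6%), and at day 10 there were 1 and 1 (0.945% and 1.11%). The Rag-1 null counts were 2 and 2 (7.75% and 9.13%), 2 and 3 (11.9% and 15.4%), and 1 and 1 (4.64% and 4.24%). Eln, which encodes the elastin core, read 7.09, 7.34 and 8.30 in wild type controls, 7.15, 7.36 and 6.85 at day 1, 9.30, 9.86 and 10.03 at day 4 and 9.87, 9.82 and 10.04 at day 10. Day 4 and day 10 arrays lay above all controls, by 2.15 ± 0.50 (4.45-fold, adjusted p 0.00309) and 2.33 ± 0.50 (5.04-fold, adjusted p 0.0169). Rag-1 null controls read 8.50, 8.99 and 7.16, and LPS lungs 9.94, 8.83 and 8.73 at day 1, 10.58, 9.42 and 8.08 at day 4 and 10.57, 9.95 and 9.36 at day 10. Only the day 10 arrays lay clear of those controls, with a rise of 1.74 ± 0.50 (adjusted p 0.0275). The wild type day 10 call ended without wild type control replicate 1 or 2 or day 10 replicate 1 or 3 (2.09 to 2.36, adjusted p 0.0529 to 0.0704). The Rag-1 null day 10 call ended without control replicate 3 (1.21, adjusted p 0.206), day 10 replicate 1 (1.43, adjusted p 0.156) or day 10 replicate 2 (1.74, adjusted p 0.0813). Smooth muscle markers (7 of 9 tested), from cells that also make elastin, summed to 960 to 1659 units in wild type controls and 614 to 1381 at day 1. They summed to 1163 to 1750 at day 4 and 1357 to 2008 at day 10. The Rag-1 null sums were 1362 to 2546 in controls, 1559 to 1745 at day 1, 707 to 1716 at day 4 and 927 to 2234 at day 10. Tagln was detected on no array of 3 groups, and the part of these markers was not tested.

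Lox, the lysyl oxidase that cross-links elastin and collagen, rose at day 1 and day 4 in both genotypes. Wild type arrays read 8.13, 8.11 and 8.49 in controls, 9.74, 9.47 and 9.46 at day 1, 9.50, 9.17 and 9.37 at day 4 and 8.79, 8.86 and 8.67 at day 10. All LPS arrays lay above the controls, with changes of 1.32 ± 0.22 at day 1 (adjusted p 4.57e-05; 1.22 without replicate 1) and 1.11 ± 0.22 at day 4 (adjusted p 0.000765). Day 10 did not pass. Rag-1 null Lox went from 8.15, 8.81 and 8.14 to 10.39, 9.88 and 9.59 at day 1 and 9.56, 9.34 and 9.09 at day 4 (1.59 ± 0.22, adjusted p 1.48e-05, and 0.97 ± 0.22, adjusted p 0.00163). The day 1 and day 4 calls held in every fit that left out 1 array. Its relative Loxl1, which acts on elastin, passed once, at Rag-1 null day 4 (-0.74 ± 0.20, adjusted p 0.00864), and not without Rag-1 null control replicate 2 (-0.51) or day 4 replicate 3 (-0.50). Loxl2 did not pass at any day.

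Emilin2, an elastin microfibril interface protein, was close to background in controls, where it was detected on 1 wild type array and on no Rag-1 null array. Wild type lungs read 4.37, 4.79 and 4.21 in controls, 6.03, 6.30 and 5.90 at day 1 and 5.95, 5.29 and 5.66 at day 4. Those arrays lay above every control, by 1.62 ± 0.20 (adjusted p 1.35e-06; 1.65 without replicate 1) and 1.18 ± 0.20 (adjusted p 0.000212). The Rag-1 null levels were at least 2.03-fold higher at day 1 (adjusted p 0.00055) and at least 2.60-fold higher at day 4 (adjusted p 1.12e-05). At day 10 it was detected on no wild type array and on all 3 Rag-1 null arrays, which read 5.08, 5.31 and 4.89. Emilin1 rose at wild type day 4 by 0.87, a call that ended without control replicate 1 (0.74) or day 4 replicate 1 (0.64).

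Some fibulins, which join elastin to its microfibrils, were lower after LPS: Fbln1 at day 1 in both genotypes and in the Rag-1 null lungs of day 4, Fbln2 at wild type day 1, and the fibulin-3 gene Efemp1 in Rag-1 null lung. Fbln1 read 5.95, 5.67 and 5.98 in Rag-1 null controls, 5.06, 4.47 and 4.72 at day 1 and 4.89, 4.66 and 4.84 at day 4. All LPS arrays lay below the controls, by -1.12 ± 0.22 (adjusted p 0.000954) and -1.07 ± 0.22 (adjusted p 0.000829). The wild type change at day 1 was -0.60, which became -0.30 (adjusted p 0.236) without replicate 1. That wild type call also ended without control replicate 1 or 3 or day 1 replicate 3 (-0.57 to -0.53). Fbln2 was lower at wild type day 1 alone (-0.99 ± 0.26, and -1.15 without replicate 1). Fbn2, the fibrillin most abundant in development, was dim: wild type controls read 5.12, 5.19 and 4.96, and day 10 arrays 4.43, 4.67 and 4.51. It was lower in wild type lung by -0.56 ± 0.10 at day 4 (adjusted p 0.000467) and -0.55 ± 0.10 at day 10 (adjusted p 0.00976). The day 10 call ended without day 10 replicate 1 (-0.50, adjusted p 0.0589).

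Genes of the provisional, cell-adhesive matrix gave some of the largest rises. Of 7 genes, Fn1, Tnc and Tgfbi were higher in both genotypes by day 4, and Fn1 and Tgfbi in the Rag-1 null lungs of day 10. At day 4, 10.7% of all probes were higher in wild type and 11.9% in Rag-1 null lung. At Rag-1 null day 10 it was 4.64%. Fn1 encodes fibronectin, onto which collagen is assembled. It read 5.93, 6.73 and 6.54 in wild type controls, 4.49, 7.16 and 6.14 at day 1, 8.88, 8.47 and 8.34 at day 4 and 7.48, 7.86 and 7.88 at day 10. Day 4 and day 10 arrays lay above the controls, by 2.17 ± 0.42 (4.50-fold, adjusted p 0.000664) and 1.34 ± 0.42, the latter with an adjusted p of 0.0949. Rag-1 null lungs read 6.83, 6.64 and 6.65 in controls, 8.58, 8.23 and 7.77 at day 4 and 9.10, 9.17 and 7.97 at day 10. These were rises of 1.49 ± 0.42 (adjusted p 0.0096) and 2.04 ± 0.42 (4.12-fold, adjusted p 0.00217). The Fn1 difference between genotypes at day 10 was 1.01, with a 95% confidence interval of 0.19 to 1.83 before adjustment and an adjusted p of 0.207. A second, dimmer Fn1 probe gave 1.05 for that difference and passed (adjusted p 0.0217), and one more Fn1 probe gave 0.35 without passing (adjusted p 0.107).

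Tnc encodes tenascin-C, a matrix protein of wounds. It read 5.48, 5.19 and 5.19 in wild type controls and 8.11, 6.90 and 6.27 at day 4 (1.81 ± 0.49, adjusted p 0.0105). The call ended without day 4 replicate 1 (1.29, adjusted p 0.096). At wild type day 1 the change was 0.80, which did not pass, and 1.24 (adjusted p 0.0496) without day 1 replicate 1. Rag-1 null lungs gave Tnc values of 5.42, 5.60 and 4.86 in controls and 7.51, 7.41 and 7.70 at day 4 (2.25 ± 0.49, 4.75-fold, adjusted p 0.00136), a call that held in every fit leaving out 1 array. At day 10 the Rag-1 null arrays read 7.30, 6.94 and 5.04 and overlapped the controls.

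Tgfbi, the TGF-beta-induced adhesion protein, had the largest day 4 rise among the members in both genotypes. Wild type lungs read 7.82, 8.06 and 7.69 in controls, 9.78, 8.94 and 9.23 at day 1, 10.82, 10.66 and 10.88 at day 4 and 8.37, 8.26 and 8.12 at day 10. Rag-1 null lungs read 7.83, 7.59 and 7.63, then 9.94, 10.09 and 9.70, then 10.75, 10.70 and 10.77, and 9.77, 9.76 and 9.57 at day 10. The genotypes overlapped at day 4, and at day 10 all 3 Rag-1 null arrays were above all 3 wild type arrays. The wild type changes were 1.46 ± 0.16 (adjusted p 3.31e-07), 2.93 ± 0.16 (7.63-fold, adjusted p 4.54e-11) and, at day 10, 0.39 without passing. The Rag-1 null changes were 2.22, 3.06 (8.32-fold) and 2.01 (4.04-fold), each ± 0.16. The wild type day 1 change was 1.22 without wild type day 1 replicate 1 (adjusted p 2.13e-07).

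From day 4 to day 10 Tgfbi dropped by -2.54 ± 0.16 in wild type lung (adjusted p 1.72e-09) and by -1.04 ± 0.16 in Rag-1 null lung (adjusted p 0.000187). The test of the difference between these drops gave 1.50 ± 0.23 (adjusted p 0.00366), and that of the day 10 LPS response gave 1.62 ± 0.23 (adjusted p 0.00131). Both held in every fit that left out 1 array, and a second Tgfbi probe gave 1.33 and 1.45. Monocyte and macrophage markers (13 of 18 tested) were summed for the same arrays. In wild type lung they gave 3646 to 7336 units at day 1, 11382 to 12386 at day 4 and 9741 to 12668 at day 10. The Rag-1 null sums were 6469 to 7315, 10253 to 10477 and 13341 to 14093. The controls gave 5707 to 10284 and 9136 to 9837. Against controls, 10 of the 13 markers were higher at day 4 in each genotype (10.7% and 11.9% of all probes). At day 10 it was 3 in wild type and 10 in Rag-1 null lung (0.945% and 4.64%). At day 1, 5 were higher and 4 lower in wild type lung (18.1% and 21.2%). The Rag-1 null day 1 counts were 7 and 2 (7.75% and 9.13%). From day 4 to day 10, 1 rose and 9 fell in wild type lung (8.00% and 6.96%). In Rag-1 null lung 3 rose and 2 fell (4.75% and 4.90%). Itgam was detected on no array of 5 groups. The part of these markers in the Tgfbi and Fn1 results was not tested.

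Spon2, the spondin that also binds bacterial lipopolysaccharide, had the deepest fall and a late rise. Wild type lungs read 6.98, 8.63 and 8.89 in controls, 5.44, 5.77 and 5.11 at day 1, 8.44, 7.40 and 7.03 at day 4 and 9.91, 10.19 and 10.13 at day 10. Day 1 arrays lay below and day 10 arrays above every control. The changes were -2.73 ± 0.37 (6.61-fold lower, adjusted p 5.12e-06; -2.72 without replicate 1) and 1.91 ± 0.37 (3.75-fold, adjusted p 0.0124). Rag-1 null lungs read 9.02, 9.18 and 8.39 in controls and 6.97, 7.57 and 7.71 at day 1, a fall of -1.45 ± 0.37 (adjusted p 0.00871). That call ended without Rag-1 null day 1 replicate 1 (-1.22, adjusted p 0.0537). The day 10 arrays, 9.15, 9.0 and 9.50, overlapped the Rag-1 null controls. The test of a different day 10 response between genotypes gave -1.56 ± 0.53, with an adjusted p of 0.141.

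Sparc, a collagen-binding protein, read 9.49, 8.76 and 9.93 in wild type controls and 10.53, 10.16 and 10.76 at day 10, above all controls but not past the test (1.09 ± 0.32, adjusted p 0.0714). Postn (periostin) was near background throughout, between 4.35 and 4.74, and Spon1 did not pass against controls at any day. Of the small leucine-rich proteoglycans, which regulate collagen fibril width, only Bgn passed against controls. At wild type day 10 the median change of their 6 probes was 0.47, beside 0.01 over all tested probes. By limma 2 of the 6 had an unadjusted p under 0.05 there. In Rag-1 null lung at day 10 the median was -0.02, and 1 probe had an unadjusted p under 0.05. Dcn and Lum did not pass at any day in either genotype. Bgn passed at wild type day 1 alone (-0.53 ± 0.19, adjusted p 0.0282). Its call ended without day 1 replicate 1 (-0.31, adjusted p 0.16) or wild type control replicate 1 or 3 (-0.46 and -0.50).

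**Figure D4:**
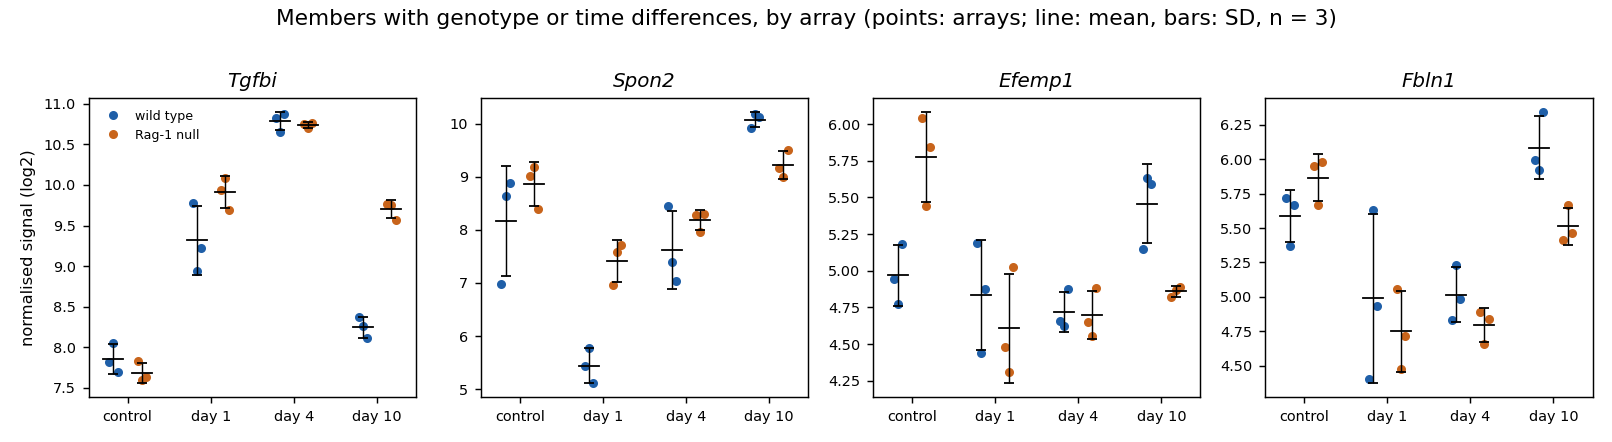
Normalised signal (log2) of Tgfbi, Spon2, Efemp1 and Fbln1 in each array, by day and genotype (points, arrays; line, mean; bars, SD, n = 3). At day 10 the 3 Rag-1 null Tgfbi arrays, 9.57 to 9.77, lie above the wild type arrays, 8.12 to 8.37, and the order is turned for Efemp1, which stays below its own controls in Rag-1 null lung.

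The second comparison asks whether lungs without mature lymphocytes differed in matrix genes at each time. Among controls 1 member probe was higher in Rag-1 null lung and 1 lower, against 0.288% and 0.997% of all tested probes (2 in all, against 1.28%). The first was Efemp1 (0.81 ± 0.20, adjusted p 0.0452), whose call ended when any 1 of 17 of the 24 arrays was left out (0.67 to 0.81). The second was Fbn2 (-0.58 ± 0.10, adjusted p 0.00461). At day 1, 17 of 64 probes were higher in Rag-1 null lung and 4 lower, against 13.0% and 11.4% (21 in all, against 24.3%). Without wild type day 1 replicate 1 the counts were 18 and 4, against 17.6% and 15.1% of all probes in that fit. At day 4 limma called none (all probes, 0.340% higher and 0.199% lower, 0.539% in all). There 4 probes had an unadjusted p under 0.05, and leaving out 1 array gave 0 or 1. At day 10, 3 were higher and 1 lower (2.97% and 2.55%, and 4 in all against 5.52%). The higher ones were both Tgfbi probes (1.45, adjusted p 8.64e-06, and 1.44, adjusted p 4.22e-06) and the second Fn1 probe. The lower one was Col8a2 (-0.52, adjusted p 0.0212), whose call ended without wild type day 10 replicate 1 or Rag-1 null day 10 replicate 1 or 2 (-0.49 to -0.42, adjusted p 0.0952 to 0.128). That total was 10 without wild type day 1 replicate 1 and 2 without Rag-1 null day 10 replicate 1.

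At day 1 all 4 fibrillar collagen genes were higher in Rag-1 null than in wild type lung, against 13.0% of all probes. Of tested markers, 5 of 15 for fibroblasts were higher and 1 lower, and for smooth muscle 2 of 7 and 1. Alveolar type 1 gave 5 of 6 and 0, alveolar type 2 gave 5 of 9 and 1, and endothelium 5 of 11 and 0. Macrophages gave 5 of 13 and 0, and mesothelium 0 of 6 and 2. Of all probes 13.0% were higher and 11.4% lower, and the markers' part was not tested. Col1a1 was higher by 1.43, Col1a2 by 0.96, Col3a1 by 1.68 and Col5a1 by 0.82. Without wild type day 1 replicate 1 they were higher by 1.18, 1.40, 2.22 and 0.59, all passing. On only the compared arrays 3 of the 4 lost the call, Col1a2 (adjusted p 0.201), Col3a1 (adjusted p 0.0982) and Col5a1 (adjusted p 0.087). The Col1a2 call ended without wild type day 1 replicate 2 or 3 or Rag-1 null day 1 replicate 1 or 3 (0.56 to 0.92, adjusted p 0.0776 to 0.197). Eln was higher by 2.04 ± 0.50 (adjusted p 0.00429) and Spon2 by 1.98 ± 0.37 (adjusted p 0.000499), both about the same without that array. Nid2 was lower by -1.29 ± 0.23, Col7a1 by -0.90 ± 0.16 and Lama5 by -0.75 ± 0.17. Without that array these were -1.05, -0.89 and -0.90, and all passed; on only the compared arrays Lama5 did not (adjusted p 0.0822). Fn1 (1.20, adjusted p 0.0402) and Col14a1 (at least 1.12-fold lower, fitted difference -0.32, adjusted p 0.0466) were called with all arrays and not without wild type day 1 replicate 1 (0.48, adjusted p 0.255, and -0.18, adjusted p 0.223). The second Fn1 probe was higher by 1.23 with all arrays (adjusted p 0.00194) and by 0.94 without that array (adjusted p 0.00873). The call of the brightest Fn1 probe also ended without wild type day 1 replicate 3 or any 1 Rag-1 null day 1 array (1.19 to 1.30). The calls of Col14a1 and Sparc (0.86, adjusted p 0.0494) each ended without any 1 of 18 arrays. Without wild type day 1 replicate 1 the Sparc difference was 1.12 (adjusted p 0.0105). For fibrillar collagens the interaction tests at day 1 did not pass, so the LPS responses were not shown to differ. Col1a1 gave 0.81 ± 0.37 (adjusted p 0.195), and 0.56 (adjusted p 0.289) without wild type day 1 replicate 1. Other day 1 differences rested on single arrays. That of Col4a4 ended without wild type day 1 replicate 2 (0.60, adjusted p 0.124) or Rag-1 null day 1 replicate 3 (0.95, adjusted p 0.075), and was 1.44 without wild type day 1 replicate 1 (adjusted p 0.000615). That of Tgfbi (0.59; 0.83 without wild type day 1 replicate 1) ended without day 1 replicate 2 of either genotype (0.40 and 0.50, adjusted p 0.0716 and 0.0599), and that of Col6a2 (0.45) without any 1 of 4 arrays, wild type day 1 replicate 1 among them (0.34, adjusted p 0.107).

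The interaction test asks directly whether the LPS response differed between genotypes. At day 1, 2 member probes had a more positive response in Rag-1 null lung and 5 a more negative one, against 4.19% and 4.02% of all probes (7 in all, against 8.21%). There were 3 and 7 without wild type day 1 replicate 1, against 9.17% and 7.86% of all probes in that fit (10 in all, against 17.0%). The genes with a more negative response were Nid2, Efemp1, Col7a1, Lama5 and Col14a1, the last at -0.64 ± 0.16. The Tgfbi call at day 1 ended without any 1 of 15 arrays (0.57 to 0.84, adjusted p 0.0513 to 0.119), that of Lama5 without any 1 of 19, and that of Efemp1 without any 1 of 5 (-1.0 to -0.89). At day 4 limma called 0 of 64, as it did over the whole array (0.00%). While 19 member probes had an unadjusted p under 0.05, the share of all probes under it was not counted, so no difference is read from them. At day 10 there were 3 and 2 (0.775% and 0.746%, and 5 in all against 1.52%), and 11 in all without wild type day 1 replicate 1. Those 5 were both Tgfbi probes and Fbn2 on the positive side, and Efemp1 and Col8a2 on the negative; the Col8a2 call ended without any 1 of 6 arrays and that of Fbn2 without any 1 of 7. For the change from day 4 to day 10 there were 2, both Tgfbi probes, and none (0.546% and 0.0665%, 0.613% in all). Efemp1, the fibulin-3 gene, read 4.94, 4.78 and 5.19 in wild type controls and 5.15, 5.64 and 5.59 at day 10. Its Rag-1 null values were 6.04, 5.44 and 5.85 in controls, 4.48, 4.31 and 5.03 at day 1, 4.65, 4.56 and 4.88 at day 4 and 4.82, 4.87 and 4.89 at day 10. Every Rag-1 null LPS array was below every Rag-1 null control. The interaction at day 10 was -1.41 ± 0.28 (adjusted p 0.0145), and it held in every fit that left out 1 array.

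The third comparison follows matrix genes from day 4 to day 10, when lungs move from injury toward recovery. In wild type lung 11 member probes rose and 3 fell, against 8.00% and 6.96% of all probes (14 in all, against 15.0%); the total was 21 without wild type day 1 replicate 1. In Rag-1 null lung 8 rose and 3 fell (4.75% and 4.90%, and 11 in all against 9.66%), 19 in all without that array and 4 without Rag-1 null day 4 replicate 2. No fibrillar collagen passed in either genotype by limma; 1 wild type probe of 5 had an unadjusted p under 0.05, and without wild type day 1 replicate 1 1 gene was lower in wild type lung. In wild type lung Spon2 rose by 2.45 ± 0.37 (adjusted p 9.95e-05), Fbln1 by 1.07 ± 0.22 (adjusted p 0.00203), Col8a1 by 0.93 and Lamb2 by 0.75. Emilin2 fell by at least 2.12-fold (adjusted p 0.000266), and Col8a2 was at least 1.37-fold higher at day 10 than at day 4 (adjusted p 0.000574). In Rag-1 null lung Col8a1 rose by 1.01 ± 0.19 (adjusted p 0.00125) and Col4a5 by 0.89 ± 0.26 (adjusted p 0.0294). The Col4a5 call there ended without Rag-1 null day 4 replicate 2 or 3 or day 10 replicate 1 or 3 (0.73 to 0.91, adjusted p 0.0776 to 0.178). Rag-1 null calls of Fbln1 and Col16a1 over this interval ended without any 1 of 12 and of 11 arrays, and the wild type calls of Efemp1 and Lama2 without any 1 of 3 and of 4.

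Enzymes that process collagen and elastin were counted from a listed set. Of 29 listed, 20 were tested. In wild type lung 1 was higher and 11 lower at day 1 (1 and 12 without day 1 replicate 1), against 18.1% and 21.2% of all probes. At day 4 there were 3 and 5 (10.7% and 12.6%), and none passed at day 10 by limma (0.945% and 1.11%). The Rag-1 null counts were 3 and 4 (7.75% and 9.13%), 2 and 6 (11.9% and 15.4%), and 1 and 2 (4.64% and 4.24%). P4ha1, a prolyl hydroxylase that stabilises the triple helix, was lower in wild type lung at day 1 (-1.62; -1.59 without replicate 1) and at day 4 (-1.42). Serpinh1, the collagen chaperone, was lower at wild type day 1 (-1.82; -1.46 without replicate 1) and at Rag-1 null day 4 (-1.0). Crtap, a subunit of the prolyl 3-hydroxylase complex, was higher at wild type day 4 (0.70). Pcolce2, an enhancer of procollagen cleavage, was lower by -2.24 at wild type day 4 and by -2.72 at Rag-1 null day 4. The list's median change at day 4 was 0.03 in wild type and 0.04 in Rag-1 null lung, beside -0.02 in each over all tested probes.

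Genes of the TGF-beta pathway, which induces many matrix genes, were mixed. Of 21 listed, 15 were tested. At wild type day 1, 5 were higher and 3 lower (7 and 3 without replicate 1), against 18.1% and 21.2% of all probes, and at day 4, 3 and 4 (10.7% and 12.6%). The Rag-1 null counts were 2 and 2 at day 1 (7.75% and 9.13%), 3 and 6 at day 4 (11.9% and 15.4%) and 2 and 2 at day 10 (4.64% and 4.24%). The ligand Tgfb1 was higher at wild type day 4 (0.81), where Tgfb2 was lower (-0.93). The receptor Tgfbr1 was higher at day 4 in both genotypes (0.69 and 0.66) and in Rag-1 null lungs of day 10 (0.84). Of 19 listed receptors for collagen, laminin and fibronectin, 15 were tested. At wild type day 1, 3 were higher and 4 lower (the same counts without replicate 1), against 18.1% and 21.2% of all probes, and at day 4, 1 and 1 (10.7% and 12.6%). The Rag-1 null counts were 3 and 3 at day 1 (7.75% and 9.13%), 2 and 4 at day 4 (11.9% and 15.4%) and 1 and 0 at day 10 (4.64% and 4.24%). Itga8, a fibronectin and nephronectin receptor subunit of alveolar fibroblasts, was lower at wild type day 4 (-1.67) and at Rag-1 null day 4 (-2.38). Lair1, a collagen receptor of leukocytes, was higher at those times (1.35 and 2.16).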

How the data were processed

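Whole-lung RNA of 24 samples was measured on 3 slides of 8 beadchip arrays, 1 array of each group per slide at a fixed position, which means that a group's position effect cannot be told apart from the group. Per the file headers, the authors' scanner table holds the mean bead intensity and a detection score (a fraction from 0 to 1) for 24046 probes. They also deposited a table of log2 values, centred on each array's mean, for 13029 of these probes under the sample names. The scanner table's title line named another sample for 22 of the 24 arrays. Each array was therefore taken as the sample whose deposited log2 column its own log2-centred signals matched (largest difference 0.00054, against at least 1.42 for any other column). Under that match the lymphocyte genes Cd3e, Cd3d, Cd79b and Fcmr were above every Rag-1 null array on 12 of 12 wild type arrays, and under the title line on 2 or 3. Image processing before deposit is not described in the labels.

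With R 4.3.3 and limma 3.58.1, the deposited intensity values were background-corrected and quantile-normalised by neqc, adding an offset of 16. The offset compresses differences of the dimmest probes most, and quantile normalisation can compress those of the brightest. The 13544 probes with a detection score over 0.95 on at least 3 arrays were tested together with lmFit and eBayes (trend) on 8 group means. Tests were two-sided, with Benjamini-Hochberg adjustment over all tested probes and a threshold of 0.05. Gene symbols came from the platform annotation, held only for probes of the deposited log2 table. A gene is described by its brightest probe. The steps were tested on simulated data. Samples of a group were not stated to come from separate animals, so p-values measure only sample-to-sample spread, possibly technical. Replicate numbers were those of the labels and coincided with the slides. Deviations of same-numbered arrays had a median correlation of 0.0601, with 32 of 84 pairs over 0.1, beside -0.0301 and 34 of 168 for different numbers. Same-numbered arrays thus correlated slightly more, and the main fit still did not treat the numbers as pairs. A fit with the slide as a block is given below.

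Results were recomputed with each array left out, with the slide as a block, from only the compared arrays, from the deposited log2 table, with cyclic loess, without background correction, and with no detection filter or a stricter one (over 0.99 on 6 arrays). Named genes were the 4 largest rises and 4 largest falls called per comparison and a list of anchor members. Members and gene lists were chosen with earlier results of these data known.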

Additional observations from a re-analysis of the deposited data

Results flagged for a closer look

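The LPS response of 8 members differed between genotypes by the test of the difference itself (limma, Rag-1 null response minus wild type response, log2 ± SE, adjusted over all tested probes). Several were dim: Col14a1, Fbn2, Col8a2, Col7a1 and Efemp1 were detected on 17, 13, 8, 21 and 20 of the 24 arrays. At day 1 the differences were -1.53 ± 0.32 for Nid2 (adjusted p 0.00422), -1.04 ± 0.28 for Efemp1 (adjusted p 0.0253), -0.91 ± 0.23 for Col7a1 (adjusted p 0.0164), -0.76 ± 0.24 for Lama5 (adjusted p 0.0482) and -0.64 ± 0.16 for Col14a1 (adjusted p 0.0169). The brightest Tgfbi probe gave 0.76 ± 0.23 (adjusted p 0.044) and its other probe 0.72 ± 0.22 (adjusted p 0.0423). Without wild type day 1 replicate 1, the array that stood apart, these were -1.28 for Nid2, -0.86 for Efemp1, -0.90 for Col7a1, -0.92 for Lama5, -0.50 for Col14a1 and 1.00 for Tgfbi, and all 6 genes passed. Other settings ended some of these calls. That of Lama5 was lost in 23 of 31 settings, the slide as a replicate block (adjusted p 0.0576) and the deposited table (-0.61, adjusted p 0.0616) among them, and that of Tgfbi in 19, the deposited table among them (0.61, adjusted p 0.143). Efemp1 lost the call in 6 settings, and Col7a1 in 1, the deposited table (-0.48, adjusted p 0.116).

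At day 10 the differences were 1.62 ± 0.23 for Tgfbi (adjusted p 0.00131) and 1.45 ± 0.22 for its other probe (adjusted p 0.00148). Efemp1 gave -1.41 ± 0.28 (adjusted p 0.0145), Col8a2 -0.87 ± 0.19 (adjusted p 0.022) and Fbn2 0.64 ± 0.15 (adjusted p 0.0317). The Col8a2 call was lost in 7 of 30 settings, the deposited table among them (-0.48, adjusted p 0.0651), and that of Fbn2 in 9 of 30. Efemp1 and Fbn2 also differed between the control groups, which enter this test. The change from day 4 to day 10 differed for Tgfbi alone among the members, by 1.50 ± 0.23 (adjusted p 0.00366) and, for its other probe, 1.33 ± 0.22 (adjusted p 0.00499).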

How the results depend on the processing

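Of 3277 recomputed values for members called and named in a comparison, 2978 kept their direction and call. A further 299 kept their direction and lost the call, and 0 reversed. These members had already passed in the main fit, and most of the values come from leaving out 1 array. Gene by gene, 2 of 9 wild type day 10 calls held in every fit leaving out 1 array. It was 2 of 8 for Rag-1 null day 10 against day 4, 15 of 20 at wild type day 1 and 11 of 18 at wild type day 4. Calls were lost for 23 of 106 values with only the compared arrays, 14 with no detection filter, 9 with cyclic loess, 7 with the deposited table, 3 with no background correction and 240 of 2544 with 1 array left out.

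Counts of called member probes moved by more than 1.5 times as follows, and the cause was not tested. In the deposited table there were 22 at wild type day 10 (11 in the report), 12 between control genotypes (2), 22 in wild type day 10 against day 4 (14), and 11, 9 and 4 for the genotype difference in the day 4 response (0), day 10 response (5) and day 4 to day 10 change (2). With only the compared arrays, which leaves fewer arrays to estimate the spread, there were 9 at wild type day 1 (22), 33 at Rag-1 null day 1 (19), 1 between control genotypes (2), 6 between genotypes at day 1 (21), 18 between genotypes at day 10 (4), 25 in wild type day 10 against day 4 (14), and 2 and 16 for the genotype difference in the day 1 (7) and day 10 (5) responses. Between control genotypes the count was 1 with no background correction, 1 with no filter and 0 with the stricter filter. Rag-1 null day 10 against day 4 gave 7 with cyclic loess and 7 with no filter (11). The genotype difference in the day 1 response gave 3 with no filter, and that at day 10 gave 3 with the stricter filter.

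Another scaling moved the split of calls at wild type day 1 from 9 higher and 13 lower to 12 and 9 (cyclic loess) and 12 and 12 (deposited table). It moved that of Rag-1 null day 10 against day 4 from 8 and 3 to 4 and 3 (cyclic loess).

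With 1 array left out the counts ran from 18 to 24, 15 to 28 and 3 to 18 at wild type days 1, 4 and 10, and from 13 to 24, 21 to 31 and 7 to 15 in Rag-1 null lung. Between genotypes they ran from 1 to 5 in controls, 15 to 22 at day 1, 0 to 1 at day 4 and 2 to 10 at day 10. From day 4 to day 10 they ran from 10 to 21 (wild type) and 4 to 19 (Rag-1 null). For genotype differences in response they ran from 3 to 10, 0 to 2 and 3 to 11 at days 1, 4 and 10, and 2 to 4 for the day 4 to day 10 change.

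With the slide as a replicate block the counts were 22, 23 and 13 in wild type lung and 21, 28 and 12 in Rag-1 null lung. Between genotypes they were 3, 21, 0 and 6, from day 4 to day 10 they were 15 and 11, and for the response differences 5, 0, 6 and 2. The block kept 104 of 106 calls, and ended those of Lama5 for the genotype difference in the day 1 response (adjusted p 0.0576) and Col16a1 for Rag-1 null day 10 against day 4 (adjusted p 0.0568). Same-numbered arrays, which shared a slide, correlated slightly more than others (medians 0.0601 and -0.0301), and the main fit did not include the slide. Members near background, among them Postn, Col15a1, Col14a1, Fbn2 and Col8a2, are limited by signal over background.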

Other observations

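A separate list of matrix glycoproteins and proteoglycans outside the members was counted in the same way. Of 40 listed, 30 were tested. In wild type lung 3 were higher and 14 lower at day 1 (3 and 13 without the day 1 array that stood apart), 2 and 12 at day 4, and 1 and 0 at day 10. The shares of all probes were 18.1% and 21.2%, 10.7% and 12.6%, and 0.945% and 1.11%. The Rag-1 null counts were 2 and 12, 2 and 18, and 0 and 7, against 7.75% and 9.13%, 11.9% and 15.4%, and 4.64% and 4.24%. The list's median change was -0.52, -0.45 and 0.06 in wild type and -0.54, -0.86 and -0.27 in Rag-1 null lung, beside medians of -0.02 to 0.01 over all tested probes. From day 4 to day 10, 15 rose and 2 fell in wild type lung, against 8.00% and 6.96% of all probes, and 10 rose and 1 fell in Rag-1 null lung, against 4.75% and 4.90%. Some listed genes, such as Npnt and Mfap5, are also on the fibroblast marker list, whose sums were low in the same groups; their part was not tested.

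Prelp, a leucine-rich proteoglycan, was lower by -1.76 at wild type day 4 and by -2.52 at Rag-1 null day 4. Ltbp4, a latent TGF-beta binding protein of elastic fibres, was lower by -2.09 and -2.37 at those times. By day 10 the Ltbp4 change was -0.04 in wild type lung, which did not pass, and -1.31 in Rag-1 null lung (adjusted p 9.74e-05 by limma). Vcan (versican), a large proteoglycan of provisional matrix, went the other way, with rises of 2.62 at wild type day 1 (2.5 without that array) and 1.16 at Rag-1 null day 1. Thbs1 (thrombospondin 1) was higher at wild type day 1 by 1.76 (2.39 without that array) and did not pass at Rag-1 null day 1 (1.17, adjusted p 0.0746 by limma). The genes in this paragraph were picked after their values were seen.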
